A study of Homo sapiens with 3 samples.

Results

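miR-22 is a conserved microRNA made from a single human hairpin, hsa-mir-22, and here its level, its arms and its replicate spread were described in MV4-11 leukemia cells. Members were chosen by name: the mature strands hsa-miR-22-3p and hsa-miR-22-5p, which are 2 of the 783 mature names listed, and the primary transcript hsa-mir-22, which is 1 of the 661 hairpins listed. MV4-11 is a human acute myeloid leukemia line with an internal tandem duplication in FLT3 and the MLL-AF4 fusion. Its cells carried an empty-vector (EV) lentiviral CRISPR-Cas9 construct, were labelled WT for genotype and were harvested for RNA after 2 weeks of growth. Small RNA was sequenced from 3 replicates of this 1 group, so there was no treated or control group to set miR-22 against. The sample titles only number the replicates and do not say whether they are separate cultures. Nor do the labels say whether they came from separate infections, so the spread between the replicates may be in part technical.

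A primary miRNA transcript folds into a hairpin, which Drosha and then Dicer cut to a duplex of a 5p and a 3p strand. One strand is usually kept in an Argonaute protein, and its seed, bases 2 to 8, pairs with matching sites in mRNAs. miR-22-3p is the strand commonly taken as the active one, and it is known for repressing TET2, an enzyme that oxidizes 5-methylcytosine in DNA and is often mutated in myeloid disease. In leukemia miR-22 has been described both as a promoter of disease, through TET2 in myelodysplastic syndrome, and as a brake on disease in acute myeloid leukemia with MLL rearrangements. The files hold small RNA only, so the level of TET2 was not analysed here.

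The mature sequences of both arms are shown first because all further values are reads of these 2 strands. They are from RefSeq on GRCh38.p14, written 5′ to 3′, with the seed in capitals.
miR-22-5p: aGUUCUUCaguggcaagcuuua
miR-22-3p: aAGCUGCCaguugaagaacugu
Each strand is 22 bases long. In a fold of the pair with RNAcofold, 19 base pairs formed between the strands at -24.6 kcal/mol, and each strand kept an unpaired 3′ end of 2 bases, the form that a Drosha and Dicer product has. No other of the 2370 mature names in the RefSeq table shared the seed of miR-22-3p or that of miR-22-5p. By bases 2 to 7 alone, miR-2116-5p matched miR-22-5p, and it was not listed in these cells. Of the 783 mature names of the deposited table, 679 matched this RefSeq table by name, so the search may not cover the rest.

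MIR22 occupies chr17:1713903-1713987 (minus strand, GRCh38.p14), with miR-22-5p at chr17:1713952-1713973 and miR-22-3p at chr17:1713914-1713935. It sits in MIR22HG, a long non-coding RNA gene that spans 1711504 to 1716210. The hairpin lay wholly inside an exon in 19 of 19 MIR22HG transcripts of GENCODE release 29, so it is an exonic miRNA rather than an intronic one. The 5p arm covers bases 15 to 36 of the 85-base hairpin annotation and the 3p arm bases 53 to 74. They leave 14 bases before the 5p arm, 16 between the arms and 11 after the 3p arm.

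Total counts assigned to mature miRNAs were between 10991953 and 12694823 per library. Markers fitted a blood line, since all 5 blood miRNAs were listed and each had a mean above that of miR-22-3p, while the summed FPKM of the 5 ran from 1612260 to 2790980. Of 12 markers of red blood cell lineage, epithelium, liver and muscle, 10 were listed and 0 were above miR-22-3p. They were detected nonetheless, with a summed FPKM of 9560 to 12923 for epithelium and 3965 to 4257 for muscle. For red blood cell lineage it was 924 to 1349 and for liver 183 to 308. Libraries differed in scale: the median of ratios to their common reference gave size factors of 0.798, 1.11 and 1.18 for replicates 1, 2 and 3. miR-21-5p alone took 38.5%, 26.8% and 20.2% of mature counts in the same order. Values of miR-22 are therefore given both as deposited and after division by these factors.

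miR-22-3p was an abundant, though not a leading, miRNA of these cells. It had 52857 FPKM (fragments per 1000 bases of feature and 1000000 reads) in replicate 1, 57458 in replicate 2 and 40007 in replicate 3, with a mean of 50107 ± 9045 (SD, n = 3). These values rest on 14094, 13266 and 9817 counts. Replicate 3 was the lowest, and its counting interval lay clear of the others: miR-22-3p took 1110 of every 1000000 mature counts in replicate 1, with a Wilson 95% interval of 1092 to 1129. In replicate 2 it took 1207, with an interval of 1187 to 1228, and in replicate 3 it took 840, with an interval of 824 to 857. Its mean share of mature counts was 0.105% ± 0.0190 (SD, n = 3). With miR-21-5p taken out of the total the share was 0.181%, 0.165% and 0.105% in replicates 1, 2 and 3, with a mean of 0.150%.

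By mean FPKM miR-22-3p ranked 80 of 783 mature names, within the top 10.2%, and it ranked 58, 76 and 84 in replicates 1, 2 and 3. The rank is loose, because 12 other names had means within 1 SD of its own. Just above it were miR-221-5p at 52077 ± 4785 FPKM and miR-374a-5p at 51222 ± 38977 (SD, n = 3). Just below were miR-199a-3p at 49698 ± 19241 and miR-4521 at 42836 ± 27178 (SD, n = 3). None of these 4 differed from miR-22-3p by more than the larger SD of the pair.

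miR-22-5p, the other strand, was far lower. It had 739, 732 and 750 FPKM in replicates 1, 2 and 3, from 197, 169 and 184 counts, with a mean of 740 ± 9.02 (SD, n = 3). It ranked 310 of 783. Its nearest names were miR-153-3p at 754 ± 367 and miR-708-5p at 744 ± 349 FPKM above, and miR-1908-5p at 740 ± 109 and miR-708-3p at 729 ± 230 FPKM below (SD, n = 3), all within the larger SD of the pair. Although low, miR-22-5p was clearly present: even the smallest count, 169, gives 15.4 per 1000000 mature counts with a Wilson 95% interval of 13.2 to 17.9.

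**Figure D1:**
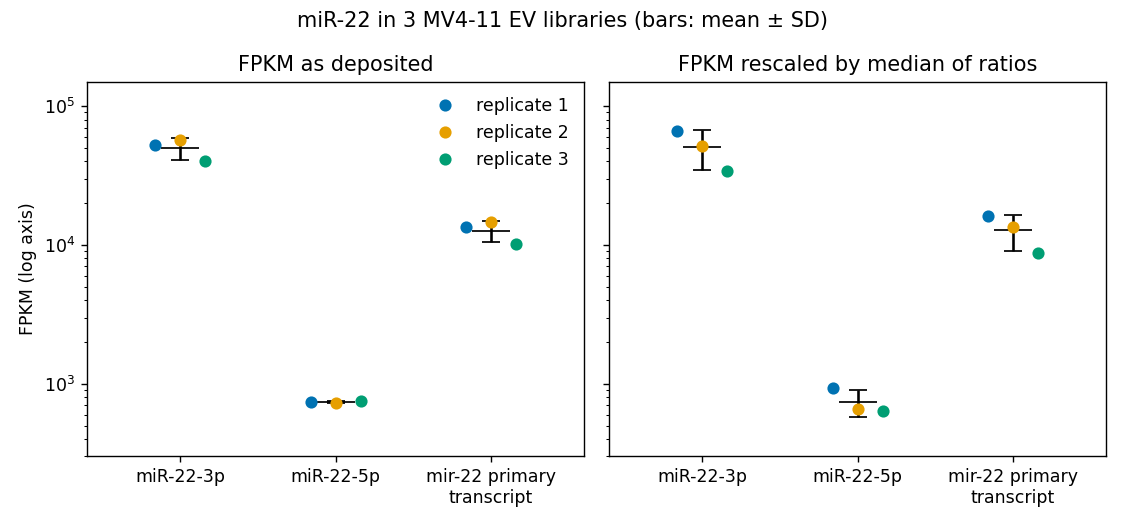
FPKM (log axis) of miR-22-3p, miR-22-5p and the mir-22 primary transcript in each of 3 MV4-11 EV libraries, as deposited (left) and divided by the median-of-ratios size factors (right); points are libraries and bars the mean ± SD. Replicate 3 was the lowest library for miR-22-3p on both scales, at 40007 and 33959, whereas the 3 values of miR-22-5p lay between 732 and 750 as deposited and between 636 and 926 after rescaling.

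**Figure D2:**
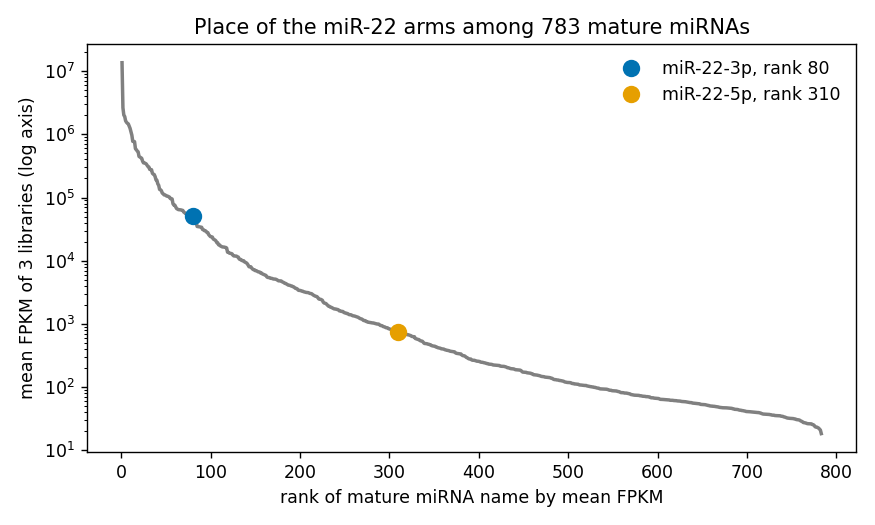
Mean FPKM over 3 libraries (log axis) against rank for the 783 mature miRNA names, with both miR-22 arms marked. miR-22-3p stood at rank 80 and miR-22-5p at rank 310.

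The arms were compared within each library to learn which strand of the hairpin was the more abundant. miR-22-3p exceeded miR-22-5p by 71.5-fold in replicate 1, 78.5-fold in replicate 2 and 53.4-fold in replicate 3, a mean of 67.8 ± 13.0 (SD, n = 3). Both strands have the same length, so the ratio of counts is also that of FPKM. On the log2 scale 3p over 5p was 6.06 ± 0.29 (SE), higher in 3 of 3 libraries. It passed edgeR's quasi-likelihood test with Benjamini-Hochberg adjustment over 195 hairpin pairs (adjusted p = 1.4e-05). The SE is the estimate over the square root of that test's F statistic and is not computed from the 3 library ratios. A strong arm bias is common: by the same rule, an adjusted p under 0.05 and a log2 ratio of at least 1, 82.1% of pairs were called, 41.5% toward 3p and 40.5% toward 5p. The median absolute log2 ratio of all pairs was 3.17, and 41 pairs had a larger absolute ratio than miR-22, a description with no test. Toward 3p it stood 19th in order among these pairs, between miR-328 at 6.13 and miR-151a at 6.04, neighbours that differed from it by less than their SE. Pairs needed a 5p and a 3p name with the same stem. Hairpins such as miR-103a and miR-26a, with a locus number in only 1 arm name, were therefore left out. So were hairpins with an arm that was not listed. The place, the 41 pairs and the share called cover the 195 pairs only.

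The share of the minor strand was not the same in all libraries. Of the arm counts, miR-22-5p was 1.38% in replicate 1, where the Wilson 95% interval ran from 1.20 to 1.58. It was 1.26% in replicate 2, with an interval from 1.08 to 1.46, and 1.84% in replicate 3, with an interval from 1.59 to 2.12. The interval of replicate 3 did not overlap those of the other two. As deposited, the 3p strand was lowest in replicate 3 and the 5p strand, at 750 FPKM, was not, whereas after rescaling both were lowest there. The SD of the log2 ratio over the libraries, 0.29, was below the median of 0.52 over all 195 pairs, and 49 pairs had a smaller one.

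**Figure D3:**
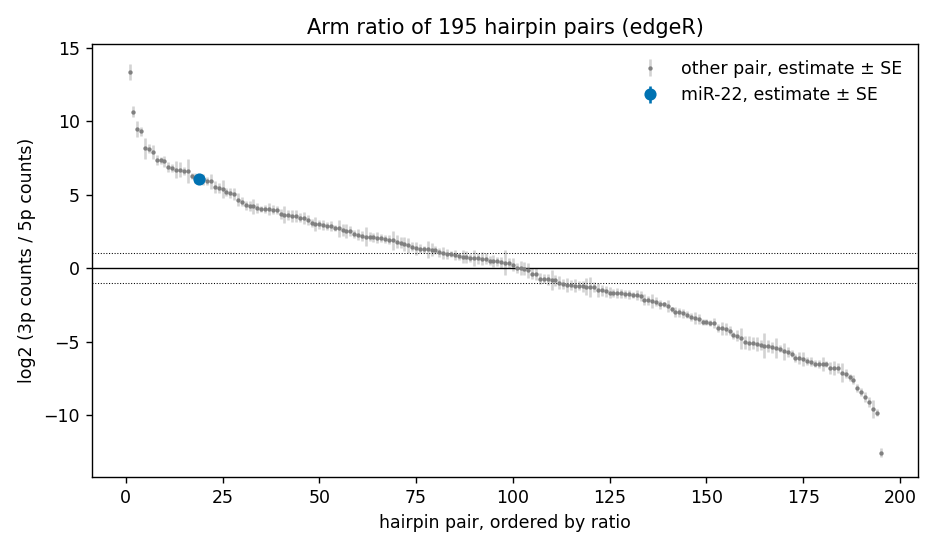
Log2 ratio of 3p to 5p counts, fitted with edgeR over 3 libraries, for 195 hairpin pairs ordered by ratio, with SE bars and miR-22 in blue; dotted lines mark a log2 ratio of 1 in either direction. miR-22 lay at 6.06, the 19th pair from the 3p side.

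Nearly all reads of the hairpin were reads of its arms. The mir-22 primary transcript had 14291, 13437 and 10003 counts in replicates 1, 2 and 3, and the arms together 14291, 13435 and 10001. Reads outside the arms were thus 0, 2 and 2. In replicate 2 this was 0.0149% of the counts (Wilson 95% interval 0.00408 to 0.0543) and in replicate 3 it was 0.0200% (0.00548 to 0.0729). A count of 0 in replicate 1 allows a share of up to 0.0210% at 3 counts, and its Wilson 95% upper limit is 0.0269%. Over the 3 libraries the mean was 0.0116% ± 0.0104 (SD, n = 3), with 0.0174% without replicate 1 and 0.00744% without replicate 3. The 41 of 85 annotated bases outside the arms lie in stretches of 14, 16 and 11 bases. A read of 22 bases, the length of an arm, therefore overlaps an arm wherever it lies on the hairpin. How such overlap was counted, and the shortest read that was kept, are not given in the sources used here. A low count outside the arms can thus come from this layout alone and says little on the loop or the flanks.

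A low share outside the arms was usual. The set was 183 hairpins with both arms listed under the hairpin's own name, in 1 row each. Their median share outside the arms was 0.0462% and the highest was 68.4%. Of these hairpins 72, mir-22 included, were at or below the share of mir-22. Among the 104 of them with at least 3000 counts over the libraries, the median was 0.0580% and 29 were at or below mir-22. For 8 of the 183 the arms summed to more than the primary transcript, so the 2 tables were not always nested. Primary and mature rows draw on the same reads, and the primary transcript row is no measure of precursor.

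**Figure D4:**
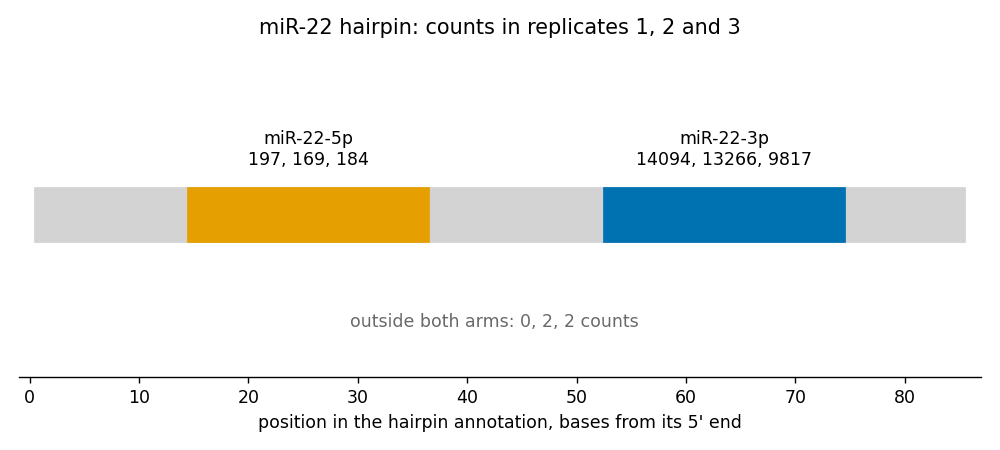
Map of the miR-22 hairpin annotation, in bases from its 5′ end, with the 5p arm (orange) and 3p arm (blue) and the counts of replicates 1, 2 and 3 above each. The grey bases outside the arms held 0, 2 and 2 counts.

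As deposited, the primary transcript row had 13370, 14510 and 10163 FPKM, with a mean of 12681 ± 2254 (SD, n = 3), and ranked 89 of 661 hairpins. This is on another scale than the FPKM of miR-22-3p, since the same reads are divided by a longer feature. The lengths behind the deposited FPKM were inferred from counts and FPKM. For each library, the smallest total not below the listed counts that made all lengths whole was taken. The lengths came to 84 bases for the hairpin and 21 for each arm, 1 base short of the annotated 85 and 22. If they are right, the levels of miR-22 are slightly high. Whether other features have the same offset was not checked. With 22 bases the mean of miR-22-3p would be 47830 FPKM and that of miR-22-5p 707.

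The replicates were compared to see how far these levels can be trusted. The coefficient of variation of miR-22-3p was 18.1% over 3 libraries, where counting alone would give 0.910%. That was below the median of 29.1% for 163 abundant miRNAs, those with 1000 or more counts in each library, of which 61 varied less. Without replicate 3 it was 5.90%. After rescaling the order turned: miR-22-3p was at 66277 in replicate 1, 51906 in replicate 2 and 33959 in replicate 3, its coefficient of variation rose to 31.9%, and 113 of the 163 varied less. Replicate 1 was then the highest library, in place of replicate 2. The fold of replicate 1 over replicate 3 was 1.32 as deposited and 1.95 after rescaling.

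miR-22-3p was among the abundant miRNAs with the lowest ratio of replicate 3 to replicate 1. As deposited, its log2 ratio was -0.40, whereas the median over the 163 abundant miRNAs was 0.52 and 41 of them were lower in replicate 3. After rescaling its log2 ratio was -0.96, the median was -0.04 and 84 of the 163 were lower in replicate 3. Rescaling centres the libraries on each other, so a median near 0 was set in advance and says nothing about miR-22-3p. Of the 163, 18, miR-22-3p among them, had a ratio at or below its own. Rescaling shifts all log2 ratios by the same amount and cannot change this order. This contrast between single libraries of 1 group has no test, and the large change in the share of miR-21-5p between the same libraries goes with it. Its part in the result was not tested.

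The deposited FPKM of miR-22-5p lay closer together than counting error alone would give on average. Its coefficient of variation was 1.22%, against 7.40% from counting alone, and only 2 of 783 names had a lower one. Without replicate 3 it was 0.656%. With 3 libraries such agreement is not a measure of precision. After rescaling the values were 926, 661 and 636 and the coefficient of variation was 21.7%, near the median of 18.9% for the 129 miRNAs that had at least 100 but under 1000 counts in all libraries. Both arms were then highest in replicate 1 and lowest in replicate 3.

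The abundant miRNAs whose library pattern was nearest to that of miR-22-3p were sought by the distance between centred log2 counts per 1000000. With 3 libraries this is a weak measure. The nearest of 162 were miR-1304-3p at a distance of 0.17, miR-455-5p at 0.21 and miR-148b-5p at 0.24, against a median distance of 0.72. miR-455-5p, the most abundant of them, had 79371, 73012 and 61761 FPKM in replicates 1, 2 and 3. Like miR-22-3p, all 3 were lowest in replicate 3, but unlike it they were highest in replicate 1 as deposited.

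miR-22-3p was then set beside other miRNAs reported to target TET2, to place it among them by level. The list held miR-22-3p, miR-29a-3p, miR-29b-3p, miR-29c-3p, miR-26a-5p, miR-26b-5p, miR-101-3p, miR-125b-5p and miR-7-5p. The miR-29 family is otherwise known for targeting DNA methyltransferases, miR-26 and miR-101 for targeting EZH2, and miR-125b as an oncogenic miRNA of blood. The strands below show that these miRNAs carry seeds other than that of miR-22-3p, with bases 2 to 8 in capitals.
miR-26a-5p: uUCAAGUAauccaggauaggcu
miR-29a-3p: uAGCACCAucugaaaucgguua
miR-101-3p: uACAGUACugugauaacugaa
miR-7-5p: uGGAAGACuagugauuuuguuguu
Of the 9, 8 had a row and miR-125b-5p was not listed.

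By mean FPKM miR-22-3p was sixth of the 8. miR-26a-5p led with 783530, 751273 and 783708 FPKM in replicates 1, 2 and 3, which was 15.4 times the mean of miR-22-3p. miR-7-5p followed with 426746 ± 112951, then miR-101-3p with 375564 ± 14315 and miR-26b-5p with 304513 ± 110325 FPKM (SD, n = 3). The order of these 3 was not resolved, since neighbours differed by less than the larger SD. miR-29a-3p had 58531, 118035 and 129061 FPKM in replicates 1, 2 and 3. It was above miR-22-3p in 3 of 3 libraries, by 1.11-fold in replicate 1, 2.05-fold in replicate 2 and 3.23-fold in replicate 3, so the gap between them depended on the library. Below miR-22-3p were miR-29b-3p with 3389 ± 796 and miR-29c-3p with 1171 ± 452 FPKM (SD, n = 3), each lower in 3 of 3 libraries. miR-22-3p made up 2.64%, 2.86% and 1.91% of the summed FPKM of the 8 in replicates 1, 2 and 3, a mean of 2.47% ± 0.495 (SD, n = 3). The deposited table has 2 rows each for miR-26a-5p, miR-101-3p and miR-29b-3p and 3 for miR-7-5p, which were summed, while miR-22-3p has 1. How reads shared by such rows were assigned is not given in the sources used here. With the highest single row of each name in place of the sum, miR-26a-5p was at 7.72 times the mean of miR-22-3p, miR-101-3p at 3.84 times and miR-7-5p at 2.91 times, and miR-22-3p was again sixth.

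**Figure D5:**
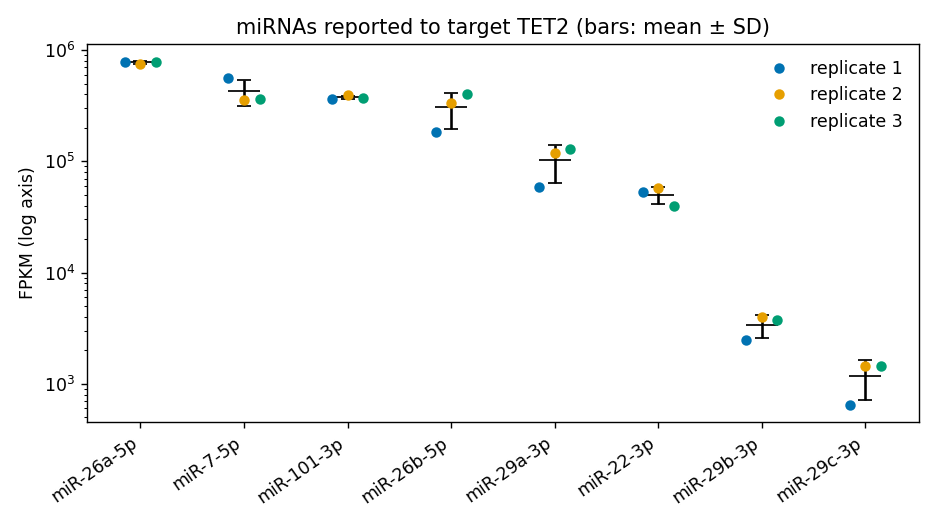
FPKM (log axis) in each library of the 8 listed miRNAs reported to target TET2, ordered by mean; points are the 3 libraries and bars the mean ± SD. miR-22-3p, at 50107 ± 9045, lay below miR-29a-3p and above miR-29b-3p in all 3 libraries.

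The 3′ UTR of TET2 was searched for letters that match these seeds, as a description of sequence. The match of bases 2 to 8 of miR-22-3p is GGCAGCT, and matches of 7 or 8 bases to the seed region were counted, with or without an A opposite base 1. In the GENCODE release 29 transcript with the longest coding sequence the 3′ UTR is 3297 bases, and it held 1 match for miR-22-3p, at chr4:105278030-105278036 on the plus strand of GRCh38. The stretch of 28 bases around it, chr4:105278011-105278038, is shown with the match in capitals because it is the one match for miR-22-3p in this UTR.
TET2: ttaaaaagaaacaaaaacaGGCAGCTgg
It is a match of 7 bases, without an A opposite base 1. At least 1 match of 7 or 8 bases was found in 32.9% of 2297 windows of the same length, each the start of the 3′ UTR of a gene, TET2 included. For the rest of the list the same UTR held 6 matches for the seed of miR-26a-5p and miR-26b-5p, 5 for miR-101-3p, 4 for the seed of the miR-29 family, 2 for miR-125b-5p and 1 for miR-7-5p. The shares of windows with at least 1 match were 44.6%, 36.4%, 29.7%, 39.8% and 43.8% in that order. Among 5 TET2 transcripts with a 3′ UTR, 4 held 1 match for miR-22-3p and 1, with a shorter coding sequence and a UTR of 5331 bases, held 3. The 4 had coding sequences of 6072 bases, in the transcript used, and of 6009, 6009 and 3504 bases, the last with a UTR of 1329 bases. Whether the matches in the other transcripts are at the position shown was not checked. In the other TET genes, the 3′ UTR of TET3, of 6000 bases, held 1 match and that of TET1, of 2668 bases, held 0. No share of windows was computed at these lengths, so the 2 genes cannot be compared by these counts. The TET3 match, at chr2:74106221-74106228, is shown because it is of 8 bases, within the 28 bases chr2:74106203-74106230 on the plus strand.
TET3: aacaaagcaagtcgagaaGGCAGCTAtc
These are matches of letters only, and binding or repression was not measured.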

How the data were processed

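The 3 small RNA libraries of MV4-11 EV cells were used. RNA was isolated on miRNeasy spin columns, and the New England Biolabs protocol gave the libraries, which were sequenced on an Illumina HiSeq 2000. The authors counted aligned reads over miRBase v21 mature miRNAs and primary transcripts. The submitters' processing notes name Novoalign 2.08.03 and the builds hg19 and mm10 without a role. The deposited files hold read counts as whole numbers, not normalized, and FPKM, which the authors derived from those counts. Every row reached 10 counts in at least 1 library, so the tables were filtered. Adapter ligation depends on sequence, and reads carry no molecular identifiers. Intervals and the floor of 3 counts cover counting error only.

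Rows of 1 mature name were summed (851 rows, 783 names). Arms were tested with edgeR 4.0.16 (R 4.3.3, glmQLFit and glmQLFTest), with the library as a block. The counts were of 195 pairs of a 5p and a 3p name with the same stem, both above 0 in every library. Hairpins with a locus number in only 1 arm name, such as miR-103a, formed no pair. Without names of several summed rows, 182 pairs remained. The test was checked on simulated data. limma 3.58.1 and DESeq2 1.42.0 were alternatives. Rescaled FPKM was divided by median-of-ratios size factors. The rule for named miRNAs took both arms, the 2 names above and the 2 below each in mean FPKM, the 3 nearest in library pattern, those sharing a seed, and the TET2 list. Members and lists were chosen with earlier results of these data known. Arms were folded with RNAcofold of ViennaRNA 2.7.2. The remaining values came from Python 3.11.15 with pandas 2.3.3 and scipy 1.17.1.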

Additional observations from a re-analysis of the deposited data

How the results depend on the processing

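Of 72 values recomputed under an alternative, over 12 results, 61 were labelled the same by the rule set for each result, 11 moved and 0 reversed. These totals are no measure of stability. Leaving a library out always shifts the mean level or mean share by less than its SD, so those values could only be labelled the same. Only the arm ratio has a sign that could reverse, so 0 reversed says nothing about the other results. The arm ratio of miR-22 was called in 10 of 10 alternatives, with log2 values from 5.95 to 6.71 and a largest adjusted p of 0.000681, and 72.3% to 86.2% of the pairs tested were called, over 148 to 196 pairs. With TMM normalization 95 pairs were called toward 3p and 71 toward 5p, in place of 81 and 79. Alternatives that used the RefSeq length, the other TET2 transcripts and the highest single row of a name were added after the data were seen.

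The mean of miR-22-5p moved to 707 FPKM with the RefSeq length, past its SD of 9.02. The share of miR-22-3p moved to 0.150% when miR-21-5p was left out of the total. With rows of a name kept separate, miR-22-3p ranked 96 and miR-22-5p 342. These ranks are among 851 rows rather than 783 names, so they are not on the same scale. With one replicate left out, the rank of miR-22-3p ran from 65 to 83, with 65 without replicate 3, and that of miR-22-5p from 306 to 319. The coefficient of variation of miR-22-3p was 31.9% after rescaling and 34.4% with TMM-scaled counts per 1000000, and ran from 5.90% without replicate 3 to 25.3% without replicate 1. That of miR-22-5p was 21.7% after rescaling and 24.4% with TMM, and ran from 0.656% without replicate 3 to 1.71% without replicate 1. The cause was not tested. The scale chosen for the libraries therefore decides how variable miR-22 appears and, for miR-22-3p, which library is highest.

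No comparison between groups was possible because the series holds 1 group. Pairing was used for the arms only, which were compared within libraries, with the library as a block. Depth limits miR-22-5p and the reads outside the arms, at 169 to 197 counts and 0 to 2 counts per library.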
